A study of Mus musculus with 16 samples.

Results

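Plasmacytoid dendritic cells (PDC) and Gr1+ monocytes of mouse bone marrow were compared for their microRNAs (miRNAs), using the 4 samples labelled as these populations out of 16 in the series. Each population had 2 biological replicates, each the RNA of a pool of 5 female C57Bl/6 mice aged 6 weeks, taken from femur and tibia and isolated within 5 h without culture. PDC were sorted as B220+ CD11c intermediate, SiglecH+ and CD317+, and the monocytes as CD11b+, CD115+ and Gr1+. The labels name no transgene or treatment. The other 12 samples are 3 marrow progenitor populations in pools of 15 mice (MP; macrophage and dendritic cell progenitors, MDP; common dendritic cell progenitors, CDP) and 3 dendritic cell (DC) populations of the spleen (CD4+, CD8+ and CD4-CD8-) in pools of 8. The arrays carry no probe for the surface proteins of the sorts, so the labels could be set only against miRNAs.

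PDC are the dendritic cells that release large amounts of type I interferon when they sense viral nucleic acids. They share transcription factors and surface B220 with lymphoid cells. Gr1+ monocytes are short-lived myeloid cells that leave the marrow during inflammation and give rise to macrophages and monocyte-derived DC. A miRNA is a short RNA that lowers the output of messenger RNAs matching its seed (bases 2 to 8 from the 5′ end), so miRNAs of one seed can act on overlapping targets.

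The mature sequences of the miRNAs on which the comparison turned are shown 5′ to 3′ as RefSeq gives them (GRCm38.p6), with the seed in capitals. The first 8 were higher in PDC and stand for the groups described below, and the other 4 were higher in monocytes.
miR-128: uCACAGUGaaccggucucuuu
miR-146a: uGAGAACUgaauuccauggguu
miR-362-3p: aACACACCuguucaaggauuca
miR-181a: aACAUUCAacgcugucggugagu
miR-181c: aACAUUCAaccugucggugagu
miR-592: aUUGUGUCaauaugcgaugaugu
miR-155: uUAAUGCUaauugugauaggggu
miR-29a: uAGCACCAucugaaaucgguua
miR-223: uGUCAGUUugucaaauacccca
miR-21: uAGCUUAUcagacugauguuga
miR-27a: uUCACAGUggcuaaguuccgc
miR-18a: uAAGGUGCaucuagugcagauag
RefSeq held a mature sequence for 63 of the 71 miRNAs that differed. miR-150, miR-151-5p, miR-181b, miR-532-5p, miR-222, miR-374, miR-669f and miR-689 are given by name.

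Replicate 1 of each population lay on one array design and replicate 2 on another, so each difference was taken within a replicate number and then over both. Signals are on the log2 scale with 0 at the array's 75th percentile, differences are PDC minus Gr1+ monocytes with the standard error (SE) of the fit, and ± values of single populations are SD (n = 2) that include the offset between the designs. Of the 604 miRNAs on both designs, 129 and 171 were detected on the PDC arrays and 123 and 142 on the monocyte arrays. Dim values were raised to a floor of -5.30 on design 1 and -5.78 on design 2. A population detected on 0 of its arrays is called not above background, and its fold is then given as a lower bound. Each value is an average over a sorted pool, so fewer cells with a miRNA and less of it per cell cannot be told apart.

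Of the 175 miRNAs tested, 71 (40.6%) differed between PDC and monocytes at an adjusted p under 0.05 (limma, Benjamini-Hochberg over the 175). PDC had the higher level of 40 (22.9%) and monocytes of 31 (17.7%). With values not above background at their lower bounds, 21 in favour of PDC exceeded 2-fold and 9 exceeded 4-fold, against 11 and 1 in favour of monocytes, where the 1 was miR-223. All 71 had the same direction in both replicates, and 56 were detected on all 4 arrays. PDC held the highest mean of all 8 populations for 16 of their 40 miRNAs, and monocytes for 12 of their 31. In the other direction, PDC held the lowest of the 8 means for 9 of the 31 and monocytes for 5 of the 40. The 40 and the 31 were called on these same PDC and monocyte values, which by itself favours such ranks. Under quantile normalization 72 miRNAs were called, 33 higher in PDC and 39 higher in monocytes, so the balance of the directions depends on the scaling. With the normexp background correction, without spots of outlying local background, 43 were called (23 higher in PDC and 20 in monocytes). With those spots kept, 101 were called, 10 higher in PDC and 91 in monocytes, and the median over all miRNAs tested shifted to -0.96. Without them, differences that rest on dim signals were smaller, for example 2.13 for miR-128, 1.99 for miR-150, 1.71 for miR-146a, 1.51 for miR-362-3p, 1.11 for miR-181c and 0.71 for miR-592. All 6 were still called. The normexp correction adds an offset of 50 to every signal, which draws differences between dim signals toward 0. It is therefore a weak check on the calls of dim miRNAs. Among the 43 calls with normexp, 11 in favour of PDC exceeded 2-fold and 2 exceeded 4-fold, against 5 and 1 in favour of monocytes.

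**Figure D1:**
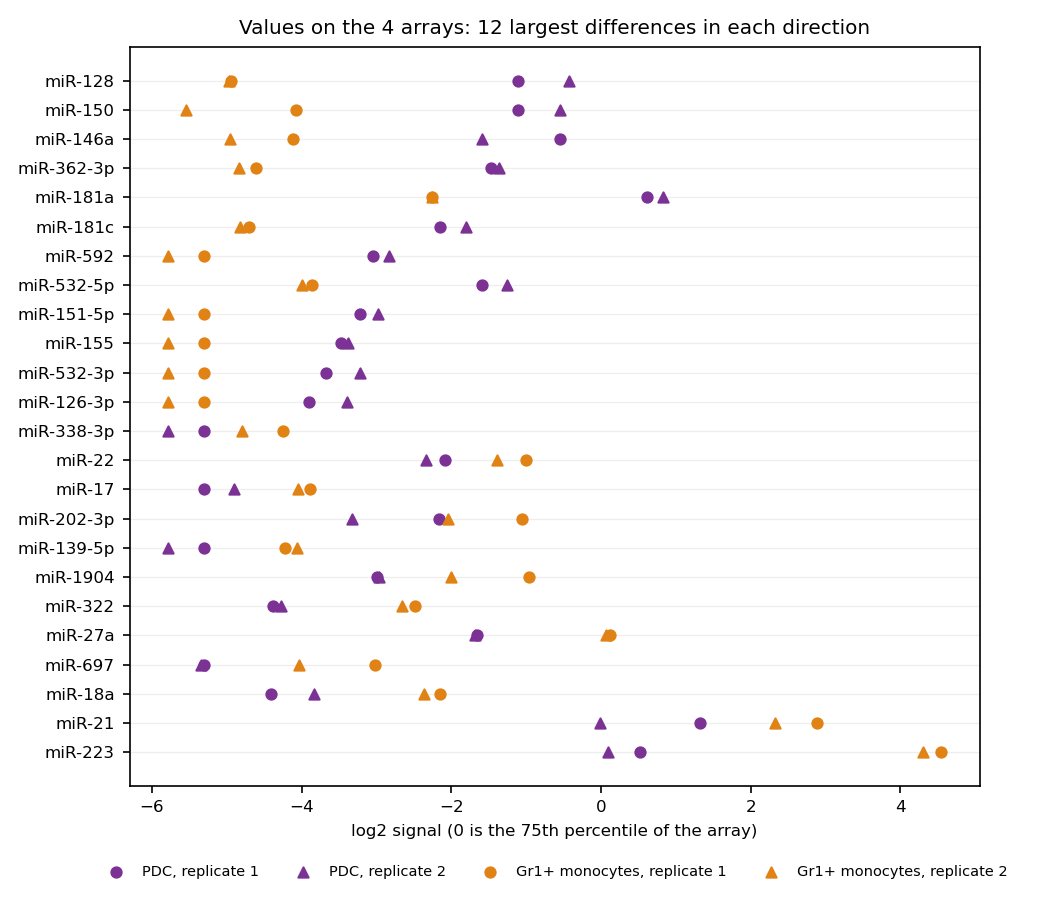
Log2 signal on the 4 arrays (x axis) of the 12 miRNAs with the largest difference in each direction, with PDC in purple, Gr1+ monocytes in orange, replicate 1 as circles and replicate 2 as triangles. The colours do not overlap in any line shown, from miR-128 at the top to miR-223 at the bottom. The narrowest gap is that of miR-202-3p, with PDC replicate 1 (-2.16) just below monocyte replicate 2 (-2.04).

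Of the 8 tested miRNAs of the lymphoid list, those known from B and T cells and their development, 7 were higher in PDC and 0 were higher in monocytes. Over all 175, 22.9% were higher in PDC and 17.7% in monocytes. This list and those below were chosen with earlier results of these data known. The median difference of the list was 2.45, or 2.28 with miR-155 at its lower bound, beside 0.00 for all 175. Under each of 3 other scalings the same counts of 7 and 0 were found, and with normexp the counts were 6 and 0 and the median 1.12.

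miR-128, abundant in brain and also found in lymphoid leukaemias, showed the largest difference of all. Its log2 signal was -1.10 and -0.43 on the PDC arrays and -4.95 and -4.97 on the monocyte arrays. The PDC values lay far above both monocyte values, and the difference was 4.19 ± 0.27 (18.3-fold, adjusted p = 6.94e-06 in limma). In the other 6 populations its mean ran from -4.58 ± 0.16 in CDP to -3.20 ± 0.56 in MP, so PDC were the highest of the 8 and monocytes the lowest. Its probes match 2 places in mm9, chr1:130098982-130099001 and chr9:112021188-112021207. RefSeq places its hairpins within the protein-coding genes R3hdm1 and Arpp21.

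miR-150, a miRNA of mature lymphocytes that represses the transcription factor gene Myb, was -1.11 and -0.55 in PDC and -4.07 and -5.54 in monocytes. The monocyte arrays differed from each other by more than the PDC arrays did, and all stayed apart from PDC. The difference was 3.97 ± 0.56 (15.7-fold, adjusted p = 0.000481). PDC (-0.83 ± 0.40) lay within the range of the spleen DC for miR-150, whose means ran from -1.96 ± 0.75 in CD4+ DC to -0.73 ± 0.85 in CD4-CD8- DC. Its probes lie at chr7:52377139-52377153.

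The miR-181 family, which tunes antigen receptor signalling in developing T cells and promotes B cell development, was higher in PDC for all 4 tested members under the main and all 3 other scalings. These 4 are also counted in the lymphoid list above. The share higher in PDC over all 175 was 22.9%. miR-181a was 0.61 and 0.83 in PDC and -2.26 on both monocyte arrays. This was the most precise of the large differences, 2.98 ± 0.13 (7.89-fold, adjusted p = 8.85e-07). miR-181c, at -2.15 and -1.81 against -4.70 and -4.82, differed by 2.78 ± 0.19 (adjusted p = 6.94e-06). Both had their highest mean of the 8 populations in PDC and their lowest in monocytes. miR-181b differed by 1.79 ± 0.15 (adjusted p = 2.41e-05) and miR-181d by 1.72 ± 0.29 (adjusted p = 0.0013). The family comes from 3 loci. Probes of miR-181a and miR-181b match chromosomes 1 and 2, and those of miR-181c and miR-181d lie together on chromosome 8 at chr8:86702792-86702809 and chr8:86702628-86702643. The opposite arm miR-181a-1* was dimmer, at -4.28 and -4.31 in PDC, and was not above background in monocytes. It was at least 1.73-fold higher in PDC (means -4.30 and -5.54, adjusted p = 0.000256), a call that ended with normexp (0.10, adjusted p = 0.661).

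Immune activation miRNAs went both ways. The list had 4 tested members, of which miR-146a and miR-155 were higher in PDC and miR-21 and miR-146b in monocytes, with a median of 0.61, or 0.38 with miR-155 at its lower bound. The shares over all 175 were 22.9% and 17.7%. miR-155 is also counted in the lymphoid list and miR-21 in the myeloid list. With normexp 1 was called in each direction and the list median was 0.030. miR-146a, which is induced by NF-kB and dampens signals from Toll-like receptors by repressing Traf6 and Irak1, was -0.55 and -1.59 in PDC and -4.12 and -4.96 in monocytes. Replicate 1 was higher than replicate 2 in both populations, and the difference of 3.47 ± 0.31 (11.1-fold, adjusted p = 3.4e-05) was close in both replicates. The spleen DC lay higher still, from 0.35 ± 0.04 in CD8+ DC to 1.15 ± 0.00 in CD4+ DC. The probes of miR-146a lie at chr11:43187908-43187925.

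miR-155, made from the Bic transcript in activated lymphocytes and macrophages, was -3.48 and -3.39 in PDC and not above background on either monocyte array. It was therefore at least 3.14-fold higher in PDC (means -3.43 and -5.54, adjusted p = 0.00153). Monocytes were the lowest of the 8 populations, and the PDC level was itself well under that of the spleen DC, where the means ran from -2.17 ± 0.36 to -0.81 ± 0.06. The call of miR-155 ended with normexp (0.36, adjusted p = 0.261).

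A set of neighbouring miRNAs on chromosome X, in the protein-coding gene Clcn5, was mostly higher in PDC. Of 7 tested members of this miR-532 cluster, 5 were higher in PDC and 0 in monocytes, beside 22.9% and 17.7% over all 175. The median was 1.58. The counts were the same under the 3 other scalings, but with normexp 3 were higher in PDC and the median was 0.36. miR-362-3p was -1.47 and -1.36 in PDC and -4.61 and -4.83 in monocytes. The difference was 3.31 ± 0.28 (9.89-fold, adjusted p = 2.58e-05), and PDC were the highest of the 8 populations. miR-532-5p, at -1.60 and -1.25 against -3.87 and -3.99, differed by 2.50 ± 0.24 (adjusted p = 4.96e-05).

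The other members were less even. miR-500 was -0.28 and -0.04 in PDC and -1.71 and -1.77 in monocytes, a difference of 1.58 ± 0.41 (adjusted p = 0.0129) whose call ended without PDC replicate 2 (adjusted p = 0.101), without monocyte replicate 1 (0.0671) or without monocyte replicate 2 (0.0522). miR-532-3p (2.09 ± 0.22) and miR-362-5p (1.47 ± 0.16), the opposite arms of the hairpins above, lay at the floor on both monocyte arrays although detected on 2 and on 1 of them, so the sizes are limited by the floor. Both calls ended with normexp (0.36, adjusted p = 0.0504 for miR-532-3p and 0.10, adjusted p = 0.626 for miR-362-5p), and that of miR-532-3p also with outlier spots kept (adjusted p = 0.175). miR-501-3p (0.14, adjusted p = 0.258) and miR-188-5p (-0.19 ± 0.37, adjusted p = 0.754) were not called. The probes of the cluster run from miR-500 at chrX:6814874-6814888 through miR-362-3p at chrX:6819152-6819170 to miR-532-3p at chrX:6825593-6825606. Of the cluster's 9 listed members, miR-501-5p was detected on no PDC or monocyte array and miR-660 was not on both designs.

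miR-592 was detected in PDC alone among the 8 populations. It was -3.05 and -2.83 on the PDC arrays and at the floor on the other 14. The difference from monocytes was 2.60 ± 0.17 in the fit, and PDC were at least 4.42-fold higher (means -2.94 and -5.54, adjusted p = 6.94e-06). miR-592 was tested only because PDC detected it. With the other 14 arrays at the floor, its SE and adjusted p can be too small. Its probes lie at chr6:27886676-27886694, and RefSeq places its hairpin in Grm8, a glutamate receptor gene. miR-151-5p was likewise not above background in monocytes, at -3.22 and -2.98 in PDC and at least 3.94-fold higher there (means -3.10 and -5.54, adjusted p = 4.43e-05). Unlike miR-592 it was higher still in the spleen DC, with means from -2.04 ± 0.12 to -1.23 ± 0.07. Both calls were kept, where tested, under 16 alternatives that used the 8 populations. The normexp fit that kept spots of outlying local background is not among these 16.

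The miR-29 family, which represses DNA methyltransferases, collagens and Mcl1, was higher in PDC for all 3 members with a median of 1.79, under the main and all 3 other scalings. The share higher in PDC over all 175 was 22.9%. miR-29a was 1.40 and 1.69 in PDC and 0.04 and 0.07 in monocytes, a difference of 1.49 ± 0.12 (2.82-fold, adjusted p = 2.41e-05). miR-29b differed by 1.79 ± 0.23 (adjusted p = 0.000262) and miR-29c by 1.89 ± 0.18 (adjusted p = 4.43e-05). For miR-29a the PDC mean (1.55 ± 0.20) lay among those of the spleen DC (1.47 to 1.84) and the monocyte mean (0.05 ± 0.02) among those of the marrow progenitors (-0.47 to 0.29).

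Of 7 tested miRNAs of stem and early progenitor cells, 3 were higher in PDC and 0 in monocytes, with a list median of 0.04. Over all 175, 22.9% were higher in PDC and 17.7% in monocytes. The members not called were miR-10a (-0.78), miR-99a (-0.37), miR-125b-5p (-0.31) and let-7e (0.04). Those higher in PDC were miR-126-3p, miR-196b and miR-130a, each not above background in monocytes. miR-126-3p, made from an intron of Egfl7 and known from blood stem cells and endothelium, was -3.90 and -3.39 in PDC and at least 2.71-fold higher there (means -3.64 and -5.54, adjusted p = 0.000183). miR-196b, from a Hox cluster, was at least 2.08-fold higher (means -4.03 and -5.54, adjusted p = 0.000557) and miR-130a at least 1.92-fold (means -4.14 and -5.54, adjusted p = 0.00867). All 3 calls ended with normexp, at 0.27 (adjusted p = 0.106), 0.14 (0.542) and 0.13 (0.674), and that of miR-130a also without PDC replicate 2 or monocyte replicate 2. The 3 miRNAs were higher in progenitors than in PDC. For miR-126-3p the means were -1.62 ± 0.08 in MP, -2.54 ± 0.08 in MDP and -2.90 ± 0.21 in CDP.

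Smaller differences in favour of PDC were found in the let-7 family, which acts on growth genes such as Lin28 and Hmga2. Of 9 members 6 were higher in PDC and 0 in monocytes, beside 22.9% and 17.7% over all 175. The median was 0.38. let-7g, at 1.62 and 1.75 in PDC and 0.93 and 0.79 in monocytes, differed by 0.82 ± 0.09 (adjusted p = 0.000116). let-7a (0.53) and let-7f (0.55) were called as well, but when the arrays were scaled over all miRNAs let-7g was the family's 1 call left. Under quantile normalization 5 were higher in PDC and 1 in monocytes. miR-30c (0.40) and miR-30e (0.42) of the miR-30 family were higher in PDC, calls that ended in 2 of the 3 other scalings, and under quantile normalization 3 miR-30 members were higher in monocytes. In pairs of close relatives 1 member passed and the other did not. miR-26b (0.46 ± 0.15, adjusted p = 0.0386), miR-148a (0.62 ± 0.14, 0.0063) and miR-222 (0.65 ± 0.14, 0.005) were called, and miR-26a (0.11), miR-148b (0.13) and miR-221 (-0.01) were not. The differences between the members of a pair were not tested. The calls of miR-148a (0.00) and miR-222 ended under quantile normalization, those of miR-26b and miR-222 when scaled over all miRNAs, and those of all 3 with normexp. The calls of miR-26b, miR-30c and miR-30e also ended without PDC replicate 2, without monocyte replicate 1 or without monocyte replicate 2.

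**Figure D2:**
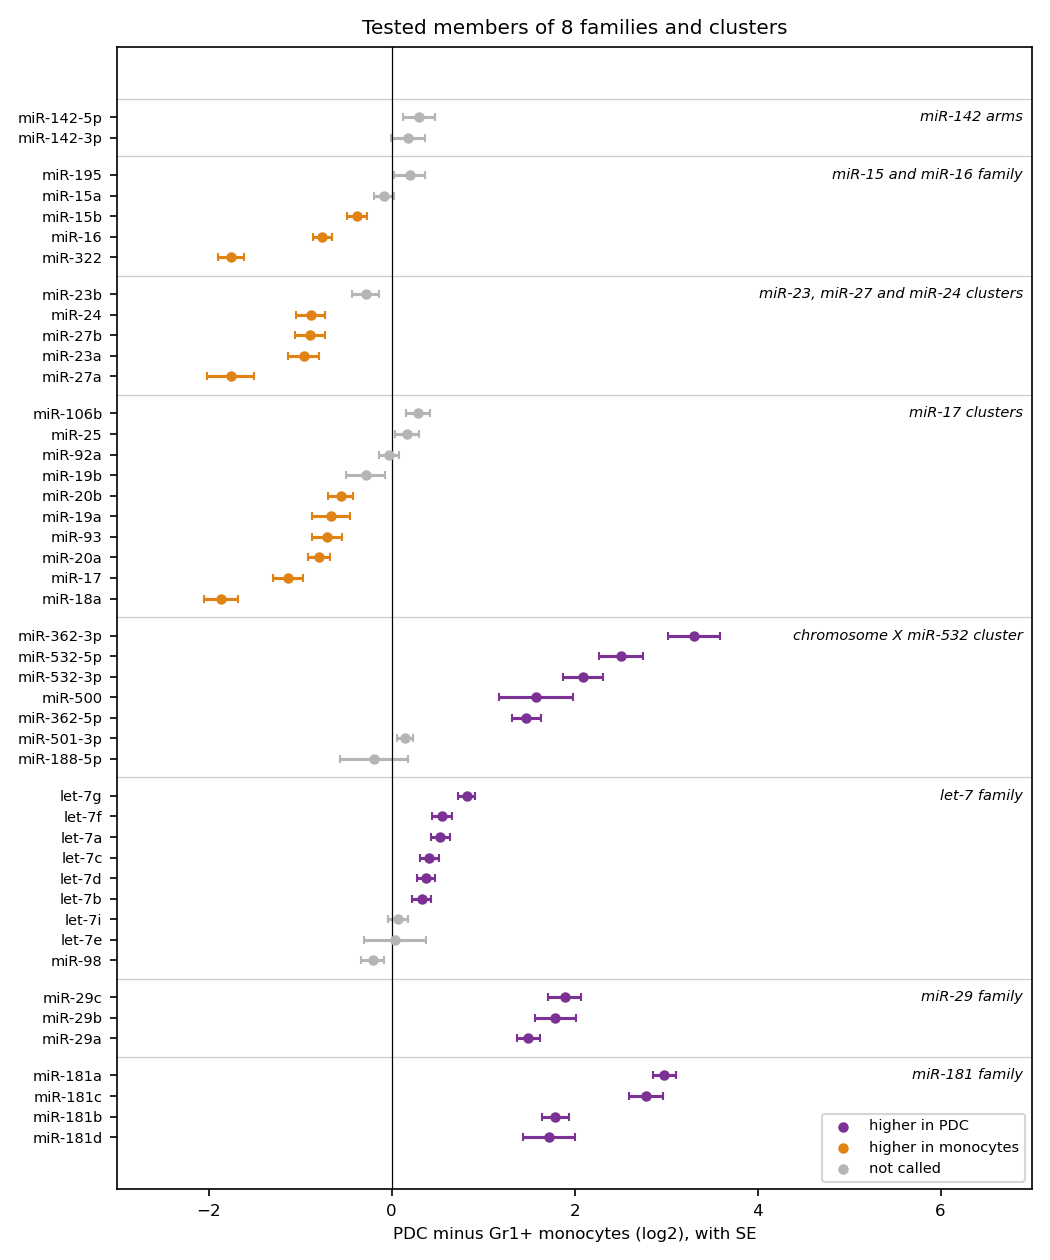
Difference between PDC and Gr1+ monocytes on the log2 scale (x axis) with its SE for the tested members of 8 families and clusters, in purple where higher in PDC, in orange where higher in monocytes and in grey where not called. All members of the miR-181 and miR-29 families lie above 1, while the called members of the miR-17, miR-23a and miR-16 groups lie below 0 and both miR-142 arms lie near 0.

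On the monocyte side, miR-223 stood apart. This miRNA of granulocytes and monocytes, which restrains neutrophil activity and represses Mef2c, was 4.54 and 4.30 in monocytes and 0.52 and 0.09 in PDC. The monocyte arrays were far above the PDC arrays, and the difference was -4.12 ± 0.20 (17.4-fold, adjusted p = 1.04e-06). Monocytes had the highest and PDC the lowest mean of the 8 populations, with the other 6 between 2.26 ± 0.02 in CD4+ DC and 3.29 ± 0.08 in CD8+ DC. Its probes lie at chrX:93438225-93438244, within a long noncoding RNA gene of RefSeq (F630028O10Rik). miR-223 was detected on both PDC arrays. The share of other myeloid cells in the PDC sort was not tested.

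The myeloid list had 7 tested members, 6 higher in monocytes and 0 in PDC, beside 17.7% and 22.9% over all 175. Its median was -1.02, and the counts were the same under the 3 other scalings. miR-21, made from the Vmp1 locus and raised in many activated or growing cells, was 2.88 and 2.33 in monocytes and 1.32 and -0.01 in PDC. The PDC arrays differed from each other by more than 1 and both lay below the monocyte arrays (-1.95 ± 0.38, adjusted p = 0.0031). The monocyte mean of miR-21 (2.60 ± 0.39) was close to those of CD4+ DC (2.53 ± 0.19) and CD4-CD8- DC (2.51 ± 0.34). miR-27a was 0.12 and 0.06 in monocytes and -1.65 and -1.69 in PDC (-1.76 ± 0.26, adjusted p = 0.000559). miR-22, with a mean of -1.19 ± 0.28 in monocytes and -2.21 ± 0.19 in PDC and no overlap of the arrays, was 2.03-fold higher in monocytes (adjusted p = 0.00492). Its means in the spleen DC were higher still, from -0.89 ± 0.32 in CD4-CD8- DC to -0.43 ± 0.07 in CD8+ DC. miR-212 (-0.77, adjusted p = 0.0791) was not called, miR-132 and miR-125a-5p were detected on none of the 4 arrays, and miR-424 was not on both designs.

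miR-23a, miR-27a and miR-24 come from 1 transcript on chromosome 8 (chr8:86732466-86732482 for miR-23a), and miR-23b and miR-27b, with another copy of miR-24, from Aopep on chromosome 13. Of the 5 tested members of both clusters, 4 were higher in monocytes, beside 17.7% over all 175. The myeloid list also counts miR-23a, miR-27a and miR-24. miR-23a was 1.08 and 0.89 in monocytes and -0.03 and 0.08 in PDC (-0.96 ± 0.17, adjusted p = 0.00163). miR-24 differed by -0.89 ± 0.16 (adjusted p = 0.00214), and the arrays do not tell its 2 copies apart. miR-27b differed by -0.89 ± 0.17 (adjusted p = 0.0026) and miR-23b by -0.28 (adjusted p = 0.181), against -1.76 for miR-27a, and the gap between the clusters was not tested.

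The miR-17 clusters, which promote proliferation and restrain Bim, had 10 tested members, 6 higher in monocytes and 0 in PDC. The shares over all 175 were 17.7% and 22.9%. The list median was -0.61. The 6 were miR-18a, miR-17, miR-20a, miR-93, miR-19a and miR-20b. miR-18a was -2.15 and -2.37 in monocytes and -4.41 and -3.84 in PDC (-1.87 ± 0.19, adjusted p = 5.69e-05). miR-17 was near the floor in PDC, where it was detected on 1 of the 2 arrays (-1.13 ± 0.17, adjusted p = 0.000626). miR-20a, much further above the floor at 0.41 and 0.34 against -0.57 and -0.26, differed by -0.79 ± 0.12 (adjusted p = 0.000818). Other members were not called. miR-92a (-0.03), miR-19b (-0.28), miR-25 (0.17) and miR-106b (0.29) were among these, and for miR-92a the 95% interval of the difference ran from -0.28 to 0.23. Scaled over all miRNAs, 4 of the 10 were called, without miR-19a and miR-20b. The calls of miR-93, miR-19a and miR-20b ended without monocyte replicate 1, those of miR-19a and miR-20b also without PDC replicate 1, and that of miR-19a also without PDC replicate 2.

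Of the miR-15 and miR-16 family, which restrains the cell cycle and Bcl2, 3 of 5 tested members were higher in monocytes. The share over all 175 was 17.7%. miR-322, from a separate cluster on chromosome X (chrX:50407455-50407475), was -2.48 and -2.66 in monocytes and -4.38 and -4.27 in PDC (-1.76 ± 0.14, adjusted p = 2.05e-05). miR-16 was 2.50 and 2.36 against 1.55 and 1.79 (-0.76 ± 0.11, adjusted p = 0.000454), but quantile normalization left it uncalled (-0.30, adjusted p = 0.128). miR-15b (-0.38, adjusted p = 0.0235) was called, and its sign turned under quantile normalization (0.05). Its call ended in 9 of 16 alternatives. Among these were scaling over all miRNAs, normexp, the brightest probe, and leaving out monocyte replicate 1 or PDC replicate 1. miR-15a (-0.08) and miR-195 (0.20) were not called.

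The remaining large differences in favour of monocytes were less firm. miR-139-5p (-4.22 and -4.06) and miR-338-3p (-4.25 and -4.80) were detected on both monocyte arrays and not above background in PDC. They were at least 2.21-fold (means -4.14 and -5.54, adjusted p = 0.0191) and 1.69-fold (means -4.53 and -5.54, adjusted p = 6.94e-06) higher in monocytes. PDC lay at the floor for both, where SE and adjusted p can be too small. Both calls ended with normexp, and miR-139-5p turned sign (0.89, not called) when spots marked as outliers were kept and lost its call without monocyte replicate 2 or PDC replicate 2. miR-697 (-1.79 ± 0.39, adjusted p = 0.00516) lost its call when the brightest probe stood for the miRNA (adjusted p = 0.0701). miR-1904 was -0.96 and -2.01 in monocytes and -2.99 and -2.97 in PDC (-1.50 ± 0.43, adjusted p = 0.0219). miR-202-3p was -1.06 and -2.04 in monocytes and -2.16 and -3.33 in PDC (-1.20 ± 0.35, adjusted p = 0.0235), where replicate 1 was higher than replicate 2 in both. The calls of miR-1904 and miR-202-3p ended without monocyte replicate 1, without monocyte replicate 2 or without PDC replicate 1, that of miR-202-3p also without PDC replicate 2, and that of miR-1904 also when scaled over all miRNAs (adjusted p = 0.0502).

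**Figure D3:**
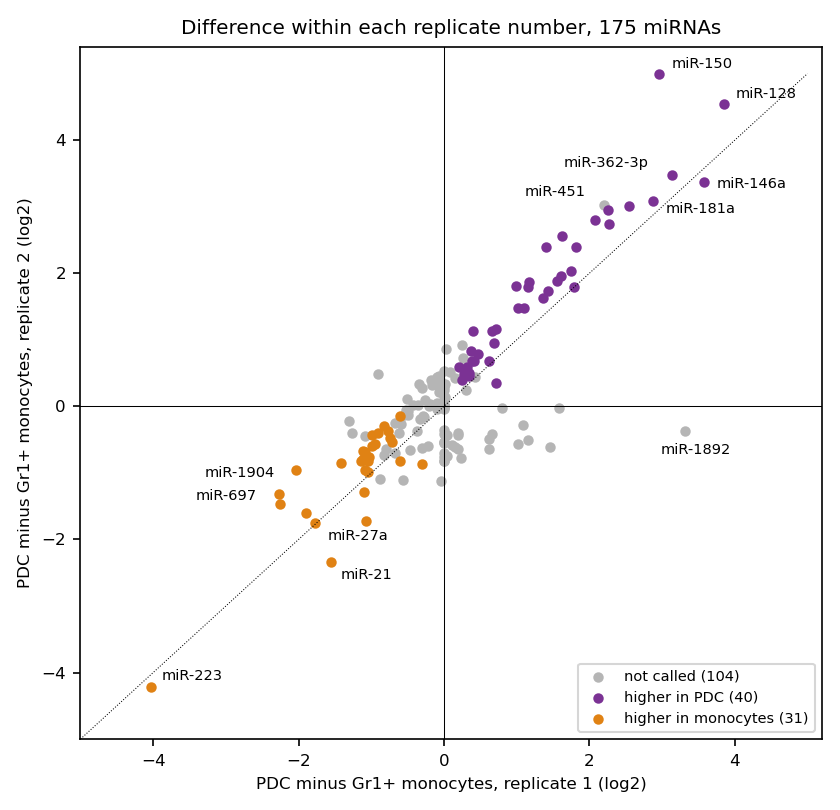
Difference between PDC and Gr1+ monocytes within replicate 1 (x axis) and within replicate 2 (y axis), log2, for the 175 miRNAs tested, coloured by the direction called. The 71 called miRNAs lie in the upper right and lower left, while miR-1892, not called, differs by 3.32 in replicate 1 and by -0.38 in replicate 2.

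Several miRNAs that mark blood cells did not differ beyond the spread. miR-142-3p, present in nearly all blood cells, was 1.51 and 0.76 in PDC and 1.50 and 0.42 in monocytes, with a difference of 0.18 (95% interval -0.25 to 0.60, adjusted p = 0.518). The other arm, miR-142-5p, differed by 0.30 (-0.10 to 0.70, adjusted p = 0.227). miR-342-3p, from an intron of Evl, was the lymphoid list's member that was not called. It was higher in PDC on both replicates, at -0.52 and -0.58 against -0.94 and -1.03 (0.43, interval -0.22 to 1.09, adjusted p = 0.291).

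miR-451, which marks red blood cells and their precursors, was -2.95 and -1.54 in PDC and -5.15 and -4.57 in monocytes. The arrays of the groups did not overlap, but the fitted difference of 2.61 ± 1.08 was not called (adjusted p = 0.0883), and miR-451 was detected on 2 PDC arrays and 1 monocyte array. The other erythroid markers, miR-144 and miR-486, were detected on none of the 4 arrays. The part of erythroid RNA in the PDC samples was not tested. Of the 11 markers of stromal, muscle and epithelial cells, 10 were detected on no PDC or monocyte array, and miR-200c was detected on 1 PDC array near the floor (-5.53). All 12 listed miRNAs of the Dlk1-Dio3 locus on chromosome 12 were undetected on the 4 arrays, but 3 tested miRNAs outside the list have probes that match there. miR-494 (chr12:110953585-110953598) was detected on all 4 arrays and was not called (-0.84 ± 0.93, adjusted p = 0.541), and miR-370 was detected on 1 monocyte array. miR-1906, which also matches chromosome X, was higher in monocytes (-0.62 ± 0.12, adjusted p = 0.00334).

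Just inside the threshold lay miR-340-5p (-0.57 ± 0.19, adjusted p = 0.0405), whose call ended when any array but PDC replicate 2 was left out, and miR-26b, and just outside it miR-101b (0.58 ± 0.21, adjusted p = 0.0505) and miR-149 (-0.99 ± 0.35, adjusted p = 0.0532).

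Of all 175 tested, 22.9% were higher in PDC and 17.7% in monocytes. Seeds were read against these directions for the 147 tested miRNAs with a RefSeq sequence. This leaves out miR-181b, miR-30b and miR-30d, among others. All 3 of these miRNAs with the seed ACAUUCA (miR-181) and all 3 with AGCACCA (miR-29) were higher in PDC, as were 6 of 9 with GAGGUAG (let-7). With AAAGUGC (the miR-17 and miR-20 group) 4 of 5 were higher in monocytes, and with AGCAGCA (miR-15 and miR-16) 3 of 5. Of the 16 seeds shared by at least 2 of these miRNAs, GAGAACU alone had members called in both directions under the main scaling. Under quantile normalization the let-7 family did too, with 5 higher in PDC and 1 in monocytes. The seed GAGAACU belongs to miR-146a, higher in PDC, and miR-146b, higher in monocytes (-0.90 ± 0.17, adjusted p = 0.00223, ended with normexp at -0.30). The sequences share their first 17 bases, in capitals here, and differ by G18A and U21C, counted from the 5′ end with miR-146a first.
miR-146a: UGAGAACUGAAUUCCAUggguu
miR-146b: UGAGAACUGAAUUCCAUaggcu
On the arrays miR-146a was -0.55 and -1.59 in PDC while miR-146b was -5.30 and -5.15 there. In monocytes miR-146a was -4.12 and -4.96 and miR-146b -4.27 and -4.38. These are signals of different probes and are not comparable as levels. The 2 probes of miR-146b differed between PDC and monocytes by -0.97 and 0.00. The miR-146b gene lies on chromosome 19 (chr19:46417284-46417301), apart from miR-146a.

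miR-128 and miR-27a, the former higher in PDC and the latter in monocytes, share a run of 8 bases, in capitals here, which starts at base 1 of miR-128 and at base 2 of miR-27a. This pair was singled out after the values had been seen.
miR-128: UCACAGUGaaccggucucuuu
miR-27a: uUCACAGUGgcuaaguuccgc
miR-27b holds the same run and was also higher in monocytes. The seeds, CACAGUG and UCACAGU, thus overlap within this run, shifted by 1 base. Whether the populations differ in messenger RNAs that hold matches to either is outside these data.

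**Figure D4:**
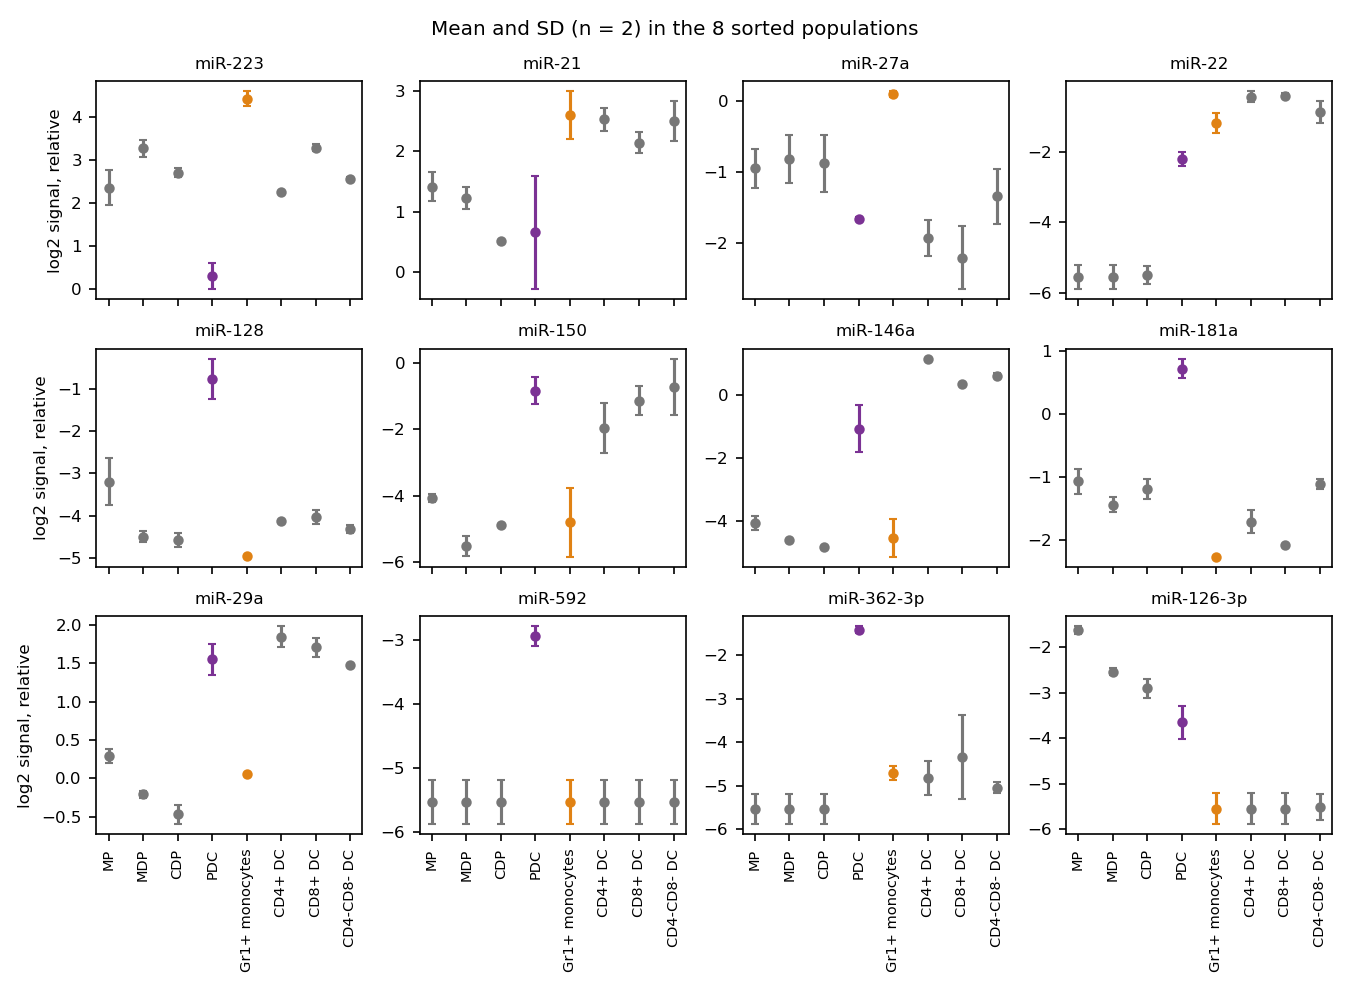
Mean log2 signal with SD (n = 2) of 12 miRNAs in the 8 sorted populations, with PDC in purple and Gr1+ monocytes in orange. miR-128, miR-181a, miR-362-3p and miR-592 are highest in PDC, and miR-223 and miR-27a are highest in monocytes. miR-21 is about as high in CD4+ and CD4-CD8- DC as in monocytes. PDC lie near the spleen DC for miR-150 and miR-29a.

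Each population was also set against the mean of the 3 marrow progenitor populations of the same tissue. The 2 contrasts share the progenitor arrays with each other and the PDC or monocyte arrays with the main comparison, so their values are given side by side without a test between them. Against the progenitors, 85 of 175 miRNAs (48.6%) were called in PDC, 46 higher (26.3%) and 39 lower (22.3%), and 71 (40.6%) in monocytes, 38 higher (21.7%) and 33 lower (18.9%).

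For one group the PDC stood above the progenitors and the monocytes were not called. miR-146a was 3.44 above the progenitors in PDC (adjusted p = 4.58e-06) and -0.03 in monocytes (adjusted p = 1). miR-150 was 3.99 above in PDC and 0.02 in monocytes, miR-29a 1.68 and 0.18, and miR-592 2.60 and 0.00.

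For another group the populations lay on opposite sides. miR-181a was 1.95 above the progenitors in PDC and fell by 1.03 in monocytes (adjusted p = 1.12e-06 and 5.54e-05). miR-128 was 3.33 above in PDC and -0.87 in monocytes, and miR-181c 0.99 and -1.79. miR-223 was -2.48 in PDC and 1.64 in monocytes (adjusted p = 1.94e-06 and 4.63e-05), and miR-27a was -0.78 and 0.98. All of these were called.

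For the next group both lay on the same side and differed in extent. miR-22, at the floor or just above it in the progenitors (means from -5.54 to -5.48), was 3.31 higher in PDC and 4.33 higher in monocytes. miR-532-5p was 3.98 higher in PDC and 1.48 higher in monocytes, and miR-362-3p 4.13 and 0.82. Below the progenitors in both were miR-20a (-1.95 in PDC and -1.16 in monocytes), miR-18a (-2.58 and -0.72), miR-126-3p (-1.29 and -3.19), miR-196b (-1.19 and -2.71) and miR-130a (-1.61 and -3.01). For miR-92a, not called between PDC and monocytes, the values were -1.34 and -1.31.

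For a last group the monocytes differed from the progenitors and the PDC were not called. miR-21 was 1.55 above the progenitors in monocytes (adjusted p = 0.00336) and -0.40 in PDC (adjusted p = 0.337). miR-23a was 0.80 above in monocytes and -0.16 in PDC. miR-155 was 2.50 below the progenitors in monocytes in the fit, where it lay at the floor, and -0.39 in PDC.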

How the data were processed

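Labelled miRNA (Cy3) had been hybridised to Agilent 1-colour miRNA arrays, 16 in all, of which 4 make the main comparison. The authors had read and background-subtracted the intensity of each spot, per the file headers, using Feature Extraction, version 10.7.3.1 by the file headers and 9.1 per the submitters' processing notes. The values used are these processed intensities as deposited, linear and unscaled. The series tables hold the same values, equal for all spots within 0.6%. Spots marked as outliers were left out, spots were averaged by probe and probes by miRNA, and a miRNA was detected where at least a share of 0.5 of a probe's spots was well above background. Probe positions are mm9, per the file headers, and names are those of the array design.

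The 604 mouse miRNAs on both designs were kept. Arrays were scaled to their 75th percentile over the 88 miRNAs found on all 16 (factors 457 to 876), values under the floor (the median over a design's arrays of the 5th percentile of detected values) were raised to it, and log2 was taken. On the 4 arrays 34 to 54 of the 175 miRNAs tested (detected in both replicates of some population) lay at the floor, where SE and adjusted p can be too small. A lower bound sets the dim side on each array to its own signal or, if higher, the array's lowest detected probe signal. limma 3.58.1 in R 4.3.3 fitted a mean for each of 8 populations with the array design (the replicate number) as a block, with moderated variances (8.52 degrees of freedom). Replicate numbers pair the arrays, since each number is 1 array design. Deviations of same-numbered PDC and monocyte arrays correlated with r = 0.451 across miRNAs. p-values were adjusted by Benjamini and Hochberg within each comparison, and 0.05 was the threshold. The number of arrays limits the precision, and no spot was saturated. The statistics were also run on simulated arrays that had the same spread for every miRNA and no floor. That run therefore cannot show how SE and adjusted p behave at the floor. None of the 71 called miRNAs had probes with differences of opposite sign. For miR-139-5p, miR-338-3p, miR-7a, miR-146b, miR-362-5p and miR-532-3p the smallest probe difference was 0.00 in size, which has no sign.

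miRNAs named are the 12 largest differences in each direction, up to 4 members per list by p, the whole of each list described by member, fixed blood cell miRNAs, those sharing a seed, hairpin or 10 kb with the former, and those nearest the threshold. The members and lists were chosen with earlier results of these data known. Alternatives were other scalings, background corrections, probe rules, filters, floors, the fit without the block and leaving out each array.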

Additional observations from a re-analysis of the deposited data

How the results depend on the processing

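Of the 71 calls between PDC and Gr1+ monocytes, 51 were kept under all 3 other scalings (28 higher in PDC and 23 in monocytes). Under 16 alternatives that used the 8 populations, 31 were kept where tested (18 and 13). These 16 leave out the normexp fit that kept spots of outlying local background, under which 40 of the 71 calls were kept. Between PDC and monocytes 43 miRNAs were called with normexp, 47 of 88 when only miRNAs detected on all 16 arrays were tested (fewer tested), and 0 with only the 4 arrays in limma (53 with an unadjusted p under 0.05), where the spread rests on 1 degree of freedom. Scaling over all miRNAs and testing without a filter each gave 54. The pairing by array design is in the main fit, and without the replicate block 55 were called, 32 higher in PDC and 23 in monocytes. Leaving out 1 array gave 56 to 74 calls, with the array left alone assumed to vary like the other populations. Against the progenitors, leaving out 1 array gave 75 to 86 calls for PDC and 54 to 57 for monocytes, and normexp gave 47 for monocytes. The split for monocytes against progenitors was 24 higher and 30 lower when scaled over all miRNAs, beside 38 and 33. The normexp values leave out spots whose local background is marked as an outlier, a choice made after seeing the data. The normexp fit that kept them, with 5 spots of local background over 1000 on monocyte replicate 1, shifted that comparison's median by -0.96 and gave 101 calls for PDC against monocytes (10 higher in PDC and 91 in monocytes), 36 for PDC and 125 for monocytes against the progenitors.

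Signs under the normexp fit that kept spots of outlying local background are not counted here or below. Of the 71 called miRNAs, 7 came to 0 or turned sign and lost their call under some of the 16 alternatives. These were miR-139-5p with outlier spots kept (0.89), miR-15b (0.052), miR-425 (-0.0086) and miR-148a (0.00) under quantile normalization, and miR-345-5p (-0.082), miR-331-3p (-0.070) and miR-28 (-0.0014) with normexp. Among the named miRNAs that were not called, signs turned with quantile normalization miR-30b (-0.36, there called) and miR-142-5p (-0.031); with normexp miR-200c (-0.091), miR-148b (-0.17), miR-501-3p (-0.032), miR-195 (-0.13) and miR-101b (-0.075); with the brightest probe miR-188-5p (0.22) and miR-221 (0.023); with outlier spots kept miR-92a (0.012) and miR-221 (0.055). Over the fits that left out 1 array, miR-15a ran from -0.197 to 0.039, miR-92a from -0.116 to 0.061, miR-221 from -0.234 to 0.21, miR-26a from -0.054 to 0.279, miR-148b from -0.055 to 0.318 and miR-195 from -0.073 to 0.466. The causes were not tested. Signal over background limits the dim miRNAs, whose sizes depend on the floor.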

Other observations

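On array design 2 alone, 92 further mouse miRNAs were measured, with 1 PDC and 1 monocyte array and hence no replicate. Of these 31 were detected in PDC and 28 in monocytes. The largest differences in favour of PDC among them were miR-1839-5p (-3.30 in PDC and -5.03 in monocytes, difference 1.72), miR-3473 (-4.19 and -5.61, 1.42) and miR-1971 (-5.32 and, not above background in monocytes, -5.78, 0.46). Those in favour of monocytes were miR-2132 (-1.40 and -0.30, -1.10), miR-2133 (-1.06 and 0.03, -1.09) and miR-2138 (1.32 and 2.36, -1.04).

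The median GC content of the probes was 46.0% for miRNAs higher in PDC, 51.3% for those higher in monocytes and 54.1% for those not called. Its part in the differences was not tested.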
